A study of Danio rerio with 10 samples.

Results

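Mitochondrial carriers of the SLC25 family and the TIM and TOM genes of mitochondrial protein import were compared between hearts of zebrafish kept in hypoxia and in normoxia. The members are all genes whose symbol begins with slc25a, timm or tomm among probe sets annotated to a single gene, without the carnitine carrier slc25a20 and the iron carrier slc25a37. This gave 42 genes on 48 probe sets, of 8793 single-symbol genes on 10795 probe sets, and 23 of them are carriers and 19 are import genes. Probe sets in the lowest 30% of mean intensity were not tested, and 39 members (20 carriers and 19 import genes) passed. The 3 that did not were slc25a27, slc25a44a and slc25a48, each under the background bound of 27.0 intensity units on at least 8 of the 10 arrays.

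The series holds 10 Affymetrix zebrafish arrays of heart RNA, 5 from hypoxia and 5 from normoxia. Each group has 4 labelled biological samples and 1 technical repeat of its sample 2. The sources used here state no age, sex, strain, oxygen level or exposure time, and not how many hearts made a sample. Arrays were hybridized in 3 runs, each with both groups, and their median intensities ran from 36.2 to 51.6. Hypoxia arrays 1 and 4 differed by no more than a technical pair does, as did normoxia arrays 3 and 4, so each pair was averaged and counted as 1 sample. The technical repeats were averaged into hypoxia 2 and normoxia 2, and the wash records of both repeat arrays, which make up run 3, end in an abort. The 3 samples counted in each group are named hypoxia 1/4, hypoxia 2 and hypoxia 3, and normoxia 1, normoxia 2 and normoxia 3/4. The labels do not say whether samples came from separate fish, so p-values measure the spread between these samples, which may be technical, and the number of arrays limits the precision. Levels are log2 of the quantile-normalized intensity plus 1, differences are hypoxia minus normoxia on that scale, and a gene is called where limma gave a Benjamini-Hochberg adjusted p under 0.05 over 10851 probe sets.

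Carriers of the SLC25 family sit mostly in the inner mitochondrial membrane and exchange adenine nucleotides, phosphate, metabolites, amino acids and cofactors between cytosol and matrix. Nearly all proteins of mitochondria are made in the cytosol. They enter through the TOM complex of the outer membrane and are then passed on by the TIM23 complex to the matrix and inner membrane, or by small TIM chaperones and the TIM22 complex into the inner membrane, which is the route the carriers themselves take. In the heart, which runs largely on oxidative metabolism, ADP/ATP exchange, phosphate uptake and the malate-aspartate shuttle link the respiratory chain to contraction and to glycolysis.

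Transcripts of carrier and import genes were mostly lower in hypoxic hearts, by small amounts. Of 39 genes 34 had a difference under 0, 87.2% against 54.7% of the 6810 genes tested. In limma 4 fell, 10.3% against 3.45% of all genes called lower. These were the aspartate-glutamate carrier gene slc25a12, slc25a55b, the phosphate carrier gene slc25a3b and the TIM23 receptor gene timm50. None rose in limma, against 1.09% of all genes, and 1 member was higher at an unadjusted p under 0.05, against 8.63% of all genes. At that unadjusted threshold 20 members were lower, 51.3% against 13.5% of all genes. The 2 groups did not overlap for 21 lower members, 53.8% against 17.0% of all genes, and for 2 higher members, 5.13% against 11.2%. Both lower counts include timm8a, under the background bound on 5 of 5 hypoxia and 4 of 5 normoxia arrays. They also include timmdc1, whose other probe set had -0.03 with overlapping groups. The median difference was -0.27 over carriers and -0.26 over import genes, against -0.03 over all genes tested. Over both directions 4.54% of genes and 3.98% of probe sets were called. The count of members called lower depended on the fit, and so did the share of all genes called lower. No member was called without hypoxia 3 or without an intensity trend, where that share was 0%. Without hypoxia 1/4, normoxia 1 or normoxia 3/4, 1 was called, beside shares of 0.631%, 0.117% and 0.529%. Without hypoxia 2 or normoxia 2, 2 were called, beside 1.13% and 0.881%. With the 8 samples taken as labelled 14 were called, beside 8.97%. These counts include genes other than the 4: slc25a4 without normoxia 1, slc25a10b without hypoxia 2 and slc25a11 without normoxia 2.

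**Figure D1:**
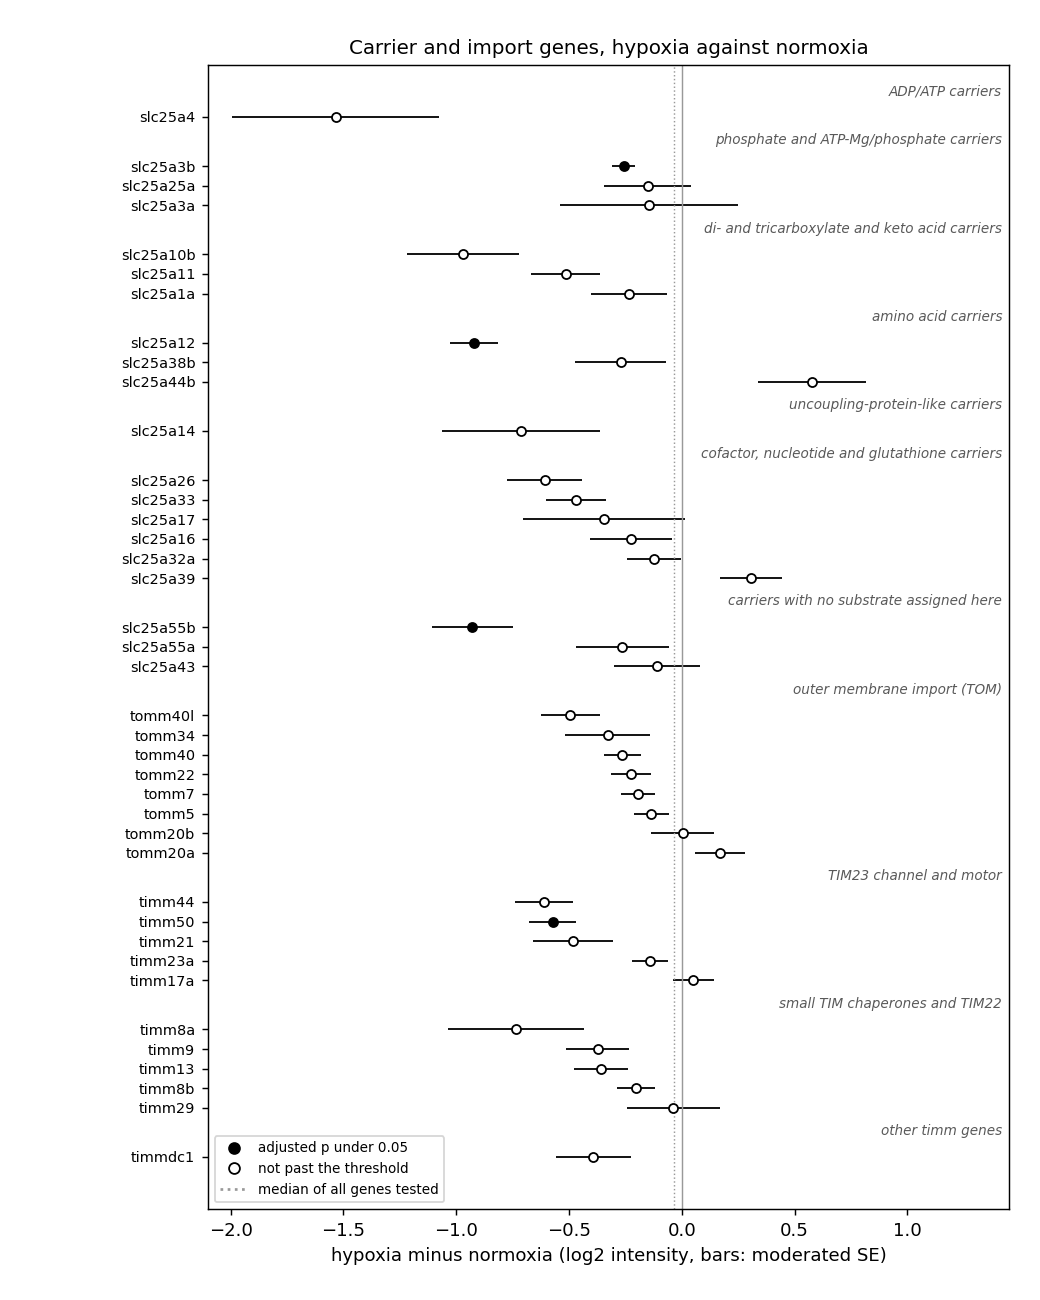
Hypoxia minus normoxia (horizontal axis, log2 intensity) for the 39 tested genes, grouped by class, with the moderated SE as bars. Filled points are the 4 genes past the threshold, all left of 0, and the dotted line marks the median of all genes tested at -0.03.

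All 3 hypoxia samples took part in this. Relative to the normoxia mean of each gene, the median deviation of the 20 carriers was -0.34 in hypoxia 1/4, -0.31 in hypoxia 2 and -0.43 in hypoxia 3, against -0.01, -0.05 and 0.11 in normoxia 1, 2 and 3/4. For the 19 import genes it was -0.22, -0.38 and -0.23 in hypoxia 1/4, 2 and 3, against -0.03, 0.03 and 0.01 in the normoxia samples. For all genes tested the hypoxia samples stood at -0.01, -0.04 and -0.04, and the normoxia samples at 0.02, 0.01 and -0.03. Normoxia medians lie near 0 because the mean of these same samples was subtracted, so the comparison is with all genes in the hypoxia samples. A member lay below every normoxia sample in 28 of 39 cases in hypoxia 1/4, 28 in hypoxia 2 and 29 in hypoxia 3. These are 71.8%, 71.8% and 74.4% of the members, against 32.3%, 34.9% and 37.7% of all genes tested in the same samples. By hybridization run the carrier median was -0.28, -0.39 and -0.18 in runs 1, 2 and 3, and the import median was -0.23, -0.19 and -0.38. Run 3 repeats RNA of run 1, and hypoxia 1 and 4 lie in different runs, so runs are not independent repeats.

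**Figure D2:**
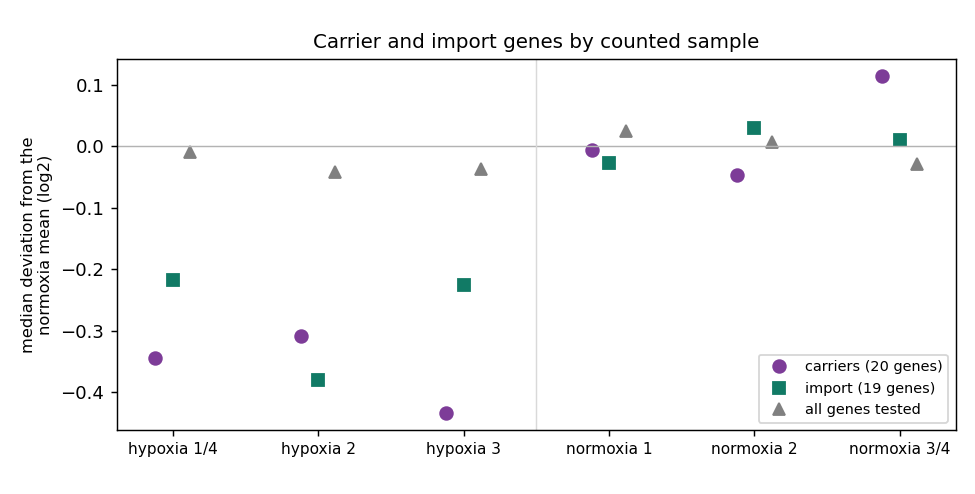
Median deviation from the normoxia mean (vertical axis, log2) of carrier genes, import genes and all genes tested in each counted sample. Carriers and import genes lie between -0.22 and -0.43 in the hypoxia samples, and all genes tested lie between -0.04 and 0.02 in all 6 samples.

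Markers of other cells also differed between the groups, in bulk tissue in which fewer cells of a type and less RNA per cell cannot be told apart. The heart label held, with all 6 measured cardiomyocyte markers of 11 listed at a mean level of 12.24 to 12.32 in hypoxia samples and 12.38 to 12.49 in normoxia samples. Of these 6, titin (ttn.2) fell with -0.56, so 16.7% were called lower, against 3.45% of all genes. All 6 had a difference under 0, 100% against 54.7% of all genes, with a median of -0.08. Groups did not overlap for 3 of them, all lower, 50% against 17.0% of all genes. Of 9 measured red blood cell genes 7 rose, 77.8% against 1.09% of all genes called higher. The mean level of the 9 was 10.93 to 11.27 in hypoxia samples and 10.14 to 10.30 in normoxia samples. Of 12 measured liver genes 3 rose, 25% against 1.09% of all genes. The mean of the 12 was 9.58 to 10.69 in hypoxia and 5.86 to 8.63 in normoxia. All 12 liver genes had a difference above 0, with a median of 2.31. At an unadjusted p under 0.05 11 liver genes were higher, against 8.63% of all genes. Groups did not overlap for 10 of them, 83.3% against 11.2% of all genes. Of 6 epithelial genes 2 rose, 33.3% against 1.09% of all genes. Of 4 tested pancreatic genes, of 6 on the array, 1 fell, 25% against 3.45% of all genes called lower. The mean levels of these 2 lists and of the endothelial and leukocyte lists overlapped between the groups, which does not describe each gene. Of the 6 epithelial genes 5 had a difference above 0 and 1 under, with a median of 1.29. Groups did not overlap for 3 of them, all higher, 50% against 11.2% of all genes. Of the 4 pancreatic genes 2 were above 0 and 2 under, the lowest being ctrb.1 with -3.16. The part of these cells in the carrier and import values was not tested.

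Adenine nucleotide and phosphate carriers supply ATP synthase with ADP and phosphate and bring ATP out. The ADP/ATP carrier gene slc25a4, whose mammalian counterpart is the main form of heart and skeletal muscle, had levels of 6.91, 6.65 and 6.66 in hypoxia 1/4, 2 and 3, against 7.16, 8.51 and 9.14 in normoxia 1, 2 and 3/4. Hypoxia samples lay close together below all normoxia samples, which themselves spread widely. With -1.53 ± 0.46 (SE, n = 3) this was the largest difference in size among the tested members, at 34.5% of the normoxia level, yet it was not called (limma adjusted p = 0.125). Leaving out normoxia 1, its lowest normoxia sample, gave -2.09 and a call (adjusted p = 0.0348). By run the difference was -1.04, -2.37 and -1.87.

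Skeletal muscle genes also spread widely within normoxia. The mean level of the 9 tested skeletal muscle genes, of 10 on the array, was 8.64, 8.16 and 8.29 in hypoxia 1/4, 2 and 3, against 7.71, 8.71 and 9.88 in normoxia 1, 2 and 3/4. Like slc25a4 the list was lowest in normoxia 1 and highest in normoxia 3/4 among the normoxia samples, but ckma, pvalb1 and pvalb2 in it did not follow that order. The liver, epithelial and endothelial lists and the other import genes had the same order within normoxia. The mean of the list overlapped between the groups, and slc25a4 did not. That mean joins genes with differences of opposite sign, so its overlap does not describe each gene. Within the list actn3b had -1.43 and atp2a1 had -1.78, beside -1.53 for slc25a4. Both had the normoxia order of slc25a4, but their groups overlapped. Like slc25a4, none of the 9 genes was called in limma, with 3 lower and 0 higher at an unadjusted p under 0.05. The 3 lower genes are 33.3%, against 13.5% of all genes. Of the 9 genes 7 had a difference under 0, 77.8% against 54.7% of all genes, and the median was -0.81. The 2 genes above 0 were pvalb1 with 0.82 and pvalb2 with 2.06, and both count in the list mean. The part of these cells in the slc25a4 values was not tested. No other ADP/ATP carrier gene was among the probe sets annotated to a single gene, so slc25a4 alone stands for this class.

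The phosphate carrier gene slc25a3b fell by a small amount with little spread. Its level was 11.81, 11.77 and 11.81 in hypoxia 1/4, 2 and 3, against 12.13, 11.98 and 12.05 in normoxia 1, 2 and 3/4. The groups did not overlap, and the difference of -0.26 ± 0.05 (SE, n = 3, limma adjusted p = 0.0427) leaves 83.6% of the normoxia level. It was -0.24, -0.25 and -0.24 in runs 1, 2 and 3, while the call was held in 8 of 22 alternative fits. Leaving out any 1 of the 6 samples lost it, with differences of -0.29 to -0.22 and limma adjusted p of 0.0594 to 0.131. It was also lost without the repeat arrays of run 3 (-0.25, limma adjusted p = 0.0568). Its paralog slc25a3a was below the background bound on 5 of 5 arrays from hypoxia and 4 of 5 from normoxia, so its difference of -0.15 ± 0.39 (SE, n = 3, limma adjusted p = 0.864) is not read as a fold. The ATP-Mg/phosphate carrier gene slc25a25a, which adjusts the matrix adenine nucleotide pool, had -0.15 ± 0.19 (SE, n = 3) and was not called (limma adjusted p = 0.697), with overlapping groups.

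Of the malate-aspartate shuttle, which carries the reducing equivalents of cytosolic NADH into the matrix, an aspartate-glutamate carrier and the oxoglutarate-malate carrier were measured. The calcium-regulated aspartate-glutamate carrier gene slc25a12 had 8.93, 8.76 and 8.97 in hypoxia 1/4, 2 and 3, against 9.72, 9.71 and 9.99 in normoxia 1, 2 and 3/4. Every hypoxia sample was far below every normoxia sample, and the means were 8.89 ± 0.11 in hypoxia and 9.81 ± 0.15 in normoxia (SD, n = 3 each). It fell to 52.8% of the normoxia level, a difference of -0.92 ± 0.11 (SE, n = 3, limma adjusted p = 0.0175), the smallest adjusted p of the members. The difference was -0.86, -1.05 and -0.97 by run, and the call was held in 17 of 22 alternative fits. It was lost without hypoxia 3 (-0.96, limma adjusted p = 0.0793) and without normoxia 1 (-0.96, limma adjusted p = 0.0534).

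The oxoglutarate-malate carrier gene slc25a11, its partner in the shuttle, was not called at either of its probe sets. At the brighter one its levels were 8.72, 8.65 and 8.78 in hypoxia 1/4, 2 and 3, against 9.46, 8.88 and 9.36 in normoxia 1, 2 and 3/4. The groups did not overlap at either probe set, with -0.52 ± 0.16 (SE, n = 3, limma adjusted p = 0.126) and -0.42 ± 0.10 (SE, n = 3, limma adjusted p = 0.0702). Without normoxia 2 the brighter one was called (-0.69, limma adjusted p = 0.0495). Of the remaining carriers of organic acids, the dicarboxylate carrier gene slc25a10b, which exchanges malate or succinate for phosphate, had 4.94, 5.79 and 5.10 in hypoxia 1/4, 2 and 3, against 6.13, 6.47 and 6.16 in normoxia 1, 2 and 3/4. Every hypoxia sample was below every normoxia sample, with -0.97 ± 0.25 (SE, n = 3), but it was not called (limma adjusted p = 0.0866). Without hypoxia 2 it was called (-1.23, limma adjusted p = 0.0394). Its difference was -0.75 with 16 added before log2 and -0.49 in run 3, so its size is not settled. The citrate carrier gene slc25a1a, which exports citrate for fatty acid and sterol synthesis, had -0.23 ± 0.17 (SE, n = 3, limma adjusted p = 0.478) and overlapping groups. So 0 of these 3 acid carriers were called in limma, and 2 of them were lower at an unadjusted p under 0.05, 66.7% against 13.5% of all genes.

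Beside slc25a12, the tested amino acid carriers were slc25a38b and slc25a44b, and neither was called. The glycine carrier gene slc25a38b, which feeds heme synthesis, had 7.66, 7.02 and 7.01 in hypoxia 1/4, 2 and 3, against 7.53, 7.65 and 7.32 in normoxia 1, 2 and 3/4. Its groups overlapped, with hypoxia 1/4 as high as the highest normoxia sample, at -0.27 ± 0.20 (SE, n = 3, limma adjusted p = 0.491). The branched-chain amino acid carrier gene slc25a44b was higher in the hypoxia samples, with 5.29, 4.98 and 5.26 in hypoxia 1/4, 2 and 3, against 4.18, 4.83 and 4.78 in normoxia 1, 2 and 3/4. Its hypoxia samples lay above all normoxia samples, with 0.58 ± 0.24 (SE, n = 3, limma adjusted p = 0.232), but 3 of 5 normoxia arrays were under the background bound. The difference was 0.30 with values set to that bound, 0.37 with 16 added before log2, 0.37 without normoxia 1 and -0.28 in run 3, so its size is not settled.

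**Figure D3:**
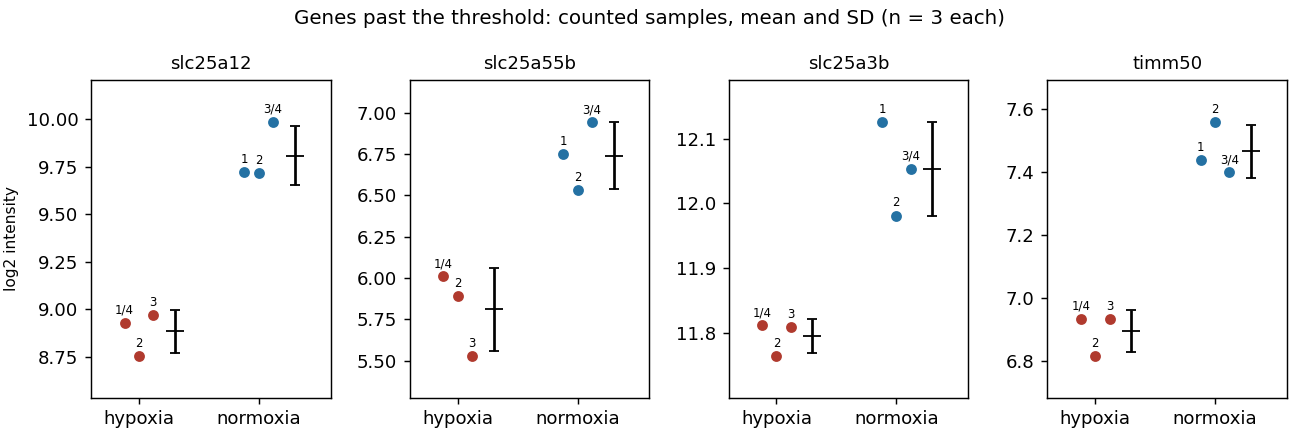
Levels (vertical axis, log2 intensity, each panel with its own scale) of the 4 called genes in the counted samples, with the mean and SD (n = 3 each). In every panel the 3 hypoxia samples lie below the 3 normoxia samples.

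Carriers of cofactors, nucleotides and glutathione were 6 measured genes with none called in limma. Of these, 5 were under 0 and 1 above, 83.3% under 0 against 54.7% of all genes. At an unadjusted p under 0.05 2 were lower, 33.3% against 13.5% of all genes. Those were slc25a26, which brings S-adenosylmethionine into the matrix for methylation, and slc25a33, a pyrimidine nucleotide carrier. For slc25a26 the levels were 6.00, 6.56 and 6.29 in hypoxia 1/4, 2 and 3, against 6.88, 6.81 and 6.99 in normoxia 1, 2 and 3/4. The groups did not overlap (-0.61 ± 0.17, SE, n = 3, limma adjusted p = 0.105), and in run 3 the difference was -0.21 against -0.85 in run 2. For slc25a33 they were 9.64, 9.69 and 9.43 in hypoxia 1/4, 2 and 3, against 10.09, 9.81 and 10.27 in normoxia 1, 2 and 3/4, again without overlap (-0.47 ± 0.13, SE, n = 3, limma adjusted p = 0.113). The genes slc25a16, linked to coenzyme A, slc25a17, a carrier of the peroxisome membrane, and slc25a32a, a folate or FAD carrier, had -0.23, -0.34 and -0.12 with overlapping groups, and slc25a17 was under the background bound on 2 arrays of each group.

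The glutathione carrier gene slc25a39, known from mammalian cells and from red cell iron use, was above normoxia at both of its probe sets without being called. It is named, like slc25a33 and slc25a44b above, because of its values. At the brighter probe set its levels were 8.71, 8.20 and 8.45 in hypoxia 1/4, 2 and 3, against 8.11, 8.17 and 8.17 in normoxia 1, 2 and 3/4, a difference of 0.31 ± 0.14 (SE, n = 3, limma adjusted p = 0.261). At the other probe set it was 0.58 ± 0.20 (SE, n = 3, limma adjusted p = 0.161), and at both probe sets no hypoxia sample overlapped the normoxia samples. The difference at the brighter probe set was 0.18 without hypoxia 1/4, 0.10 with median scaling and 0.04 in run 3. Both slc25a39 and the red blood cell list were higher in every hypoxia sample than in any normoxia sample (list mean 11.27, 10.93 and 11.04 in hypoxia 1/4, 2 and 3, against 10.30, 10.25 and 10.14 in normoxia 1, 2 and 3/4). Among hypoxia samples both were highest in 1/4 and lowest in 2, an order that the cardiomyocyte and skeletal muscle lists and the other import genes also had. Within normoxia the probe sets of slc25a39 differed in order. The brighter one was lowest in normoxia 1, where the red cell list was highest, but its normoxia values spanned only 8.11 to 8.17. The other one was highest in normoxia 1, with 6.25 against 5.63 and 6.11 in normoxia 2 and 3/4. The part of red cells in this gene's values was not tested.

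**Figure D4:**
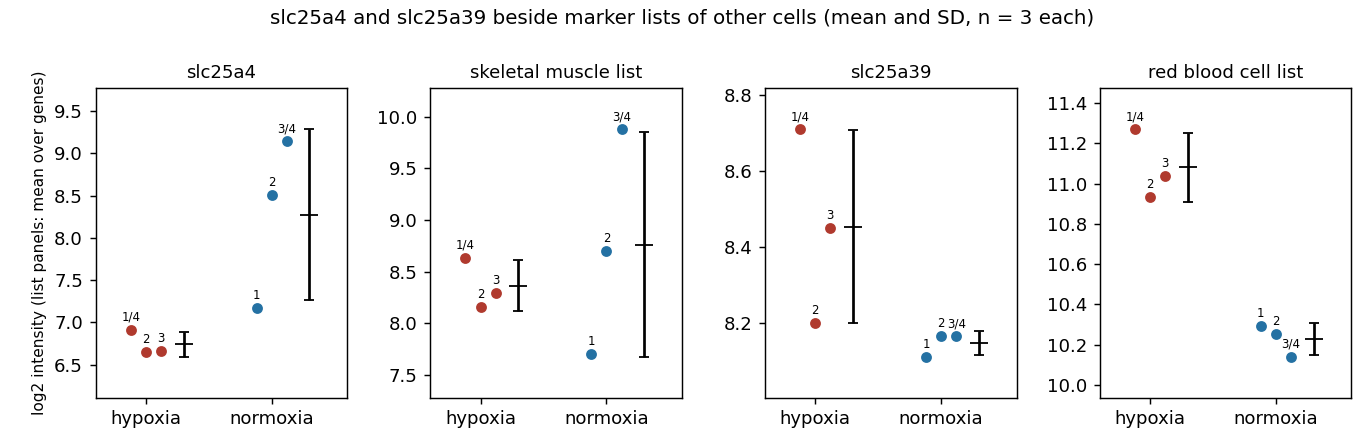
Levels of slc25a4 and slc25a39 beside the mean level of the skeletal muscle list (9 genes) and the red blood cell list (9 genes) in each counted sample (vertical axes, log2 intensity, with mean and SD, n = 3 each). Normoxia 1 is lowest and normoxia 3/4 highest within normoxia for both slc25a4 and the skeletal muscle list. Hypoxia 1/4 is highest among hypoxia samples for both slc25a39, drawn at its brighter probe set, and the red blood cell list. Within normoxia the drawn probe set of slc25a39 is lowest in normoxia 1, where the red blood cell list is highest. Its other probe set, not drawn, is highest in normoxia 1.

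The uncoupling-protein-like gene slc25a14 had 3 probe sets with -0.71, -0.21 and -0.05, none called. Groups overlapped at each, and the SE ran from 0.35 to 0.53. Its levels lay near the background bound at the 2 dimmer probe sets, each of which was under it on 3 of 5 normoxia arrays.

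Of 3 tested carriers for which no substrate was assigned here, slc25a55b fell. It had 6.01, 5.89 and 5.53 in hypoxia 1/4, 2 and 3, against 6.75, 6.53 and 6.94 in normoxia 1, 2 and 3/4. The groups did not overlap, and the difference of -0.93 ± 0.18 (SE, n = 3, limma adjusted p = 0.0423) amounted to 52.5% of the normoxia level. It was -0.79, -1.12 and -0.54 by run, and the call was held in 9 of 22 alternative fits. With any 1 of the 6 samples left out the difference was -1.03 to -0.79 and the limma adjusted p 0.0737 to 0.119. Its paralog slc25a55a had -0.26 ± 0.21 (SE, n = 3, limma adjusted p = 0.516) with overlapping groups, and the difference between the paralogs was not tested. The orphan carrier gene slc25a43 had -0.11 and changed sign with the samples used.

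Of the carriers set aside at the start, 1 was called. The carnitine carrier gene slc25a20, which brings acylcarnitines to fatty acid oxidation, had -0.99 and was called (limma adjusted p = 0.0171). The mitoferrin gene slc25a37, an iron carrier of red cell precursors, lay below the background bound on 4 of 5 arrays from hypoxia and 5 of 5 from normoxia, so its difference of 0.55 (limma adjusted p = 0.417), with overlapping groups, is not read as a fold or a direction.

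At the outer membrane, 0 of 8 TOM genes were called in limma, 6 had a difference under 0, and 4 of these were lower at an unadjusted p under 0.05 with groups that did not overlap. The 6 are 75% of the class, against 54.7% of all genes. The 4 are 50%, against 13.5% of all genes lower at that threshold and 17.0% lower without overlap. The channel gene tomm40 had 8.19, 8.24 and 8.23 in hypoxia 1/4, 2 and 3, against 8.43, 8.54 and 8.47 in normoxia 1, 2 and 3/4. Its groups stood apart by a small step, at -0.26 ± 0.08 (SE, n = 3, limma adjusted p = 0.132). The related gene tomm40l had -0.49 ± 0.13 (SE, n = 3, limma adjusted p = 0.0975), the largest difference in size of this class, also without overlap. The central receptor gene tomm22 had -0.22 and the small subunit gene tomm7, which helps assemble the complex, had -0.19, while the small subunit gene tomm5 had -0.13 and tomm34, which encodes a cytosolic cochaperone, had -0.33, these last 2 with overlapping groups.

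The presequence receptor genes tomm20a and tomm20b, a duplicated pair in zebrafish, had no difference under 0 in the reported fit. The level of tomm20a was 8.57, 8.46 and 8.78 in hypoxia 1/4, 2 and 3, against 8.34, 8.44 and 8.51 in normoxia 1, 2 and 3/4. These groups overlapped, with 0.17 ± 0.11 (SE, n = 3, limma adjusted p = 0.430), and under median scaling the value was -0.05. For tomm20b the brighter probe set gave 0.00 and the other 0.12, and median scaling moved the brighter one to -0.26.

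The TIM23 complex, the gate of the inner membrane for proteins with a presequence, had 1 of 5 genes called. This is 20%, against 3.45% of all genes called lower, and rests on 1 gene. The receptor gene timm50, which takes over proteins arriving from TOM, had 6.93, 6.82 and 6.93 in hypoxia 1/4, 2 and 3, against 7.44, 7.56 and 7.40 in normoxia 1, 2 and 3/4. It fell by 0.57 on the log2 scale (SE 0.10, n = 3, limma adjusted p = 0.0382), to 67.3% of the normoxia level, with groups well apart. Run by run it had -0.63, -0.48 and -0.71, and the call was held in 11 of 22 alternative fits. It was not held with any 1 of the 6 samples left out, where the difference was -0.61 to -0.52 at a limma adjusted p of 0.0745 to 0.114. The gene timm44, whose product tethers the Hsp70 import motor to the channel, had 6.42, 6.08 and 6.24 in hypoxia 1/4, 2 and 3, against 6.84, 6.86 and 6.87 in normoxia 1, 2 and 3/4. The normoxia samples were nearly equal and all hypoxia samples were lower, with -0.61 ± 0.13 (SE, n = 3) at a limma adjusted p of 0.0516, just outside the threshold. Single normoxia arrays ran from 6.76 to 6.97, so the near-equality holds for the counted samples and not for single arrays. By run timm44 gave -0.57, -0.58 and -0.76, and without the repeat arrays of run 3 it was called (-0.62, limma adjusted p = 0.0442).

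The channel genes of the same complex had differences nearer to 0. For timm23a the difference was -0.14 ± 0.08 (SE, n = 3, limma adjusted p = 0.360), with groups that did not overlap. For timm17a it was 0.05 ± 0.09 (SE, n = 3, limma adjusted p = 0.787), with overlapping groups and -0.23 under median scaling. The gene timm21, a subunit that contacts TOM, had 5.51, 5.41 and 5.20 in hypoxia 1/4, 2 and 3, against 6.00, 5.98 and 5.59 in normoxia 1, 2 and 3/4, without overlap (-0.48 ± 0.18, SE, n = 3, limma adjusted p = 0.188). Whether the receptor and motor genes differed from the channel genes was not tested.

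On the route that carriers take into the inner membrane, 0 of 5 genes were called in limma and all 5 had a difference under 0, with 4 lower at an unadjusted p under 0.05. These are 100% under 0, against 54.7% of all genes, and 80% lower at that threshold, against 13.5% of all genes. The intermembrane space chaperone gene timm9 had 6.51, 6.64 and 6.90 in hypoxia 1/4, 2 and 3, against 7.14, 6.94 and 7.08 in normoxia 1, 2 and 3/4. The nearest samples of the groups, hypoxia 3 and normoxia 2, almost met, at -0.37 ± 0.14 overall (SE, n = 3, limma adjusted p = 0.189). The small TIM chaperone genes timm13 and timm8b had -0.36 ± 0.12 (SE, n = 3, limma adjusted p = 0.160) and -0.20 ± 0.08 (SE, n = 3, limma adjusted p = 0.233), both without overlap. The paralog timm8a lay below the background bound on 5 of 5 arrays from hypoxia and 4 of 5 from normoxia, so its difference of -0.74 is not read as a fold, and with values set to the bound it was -0.0014. Without timm8a, 3 genes of this class were lower at an unadjusted p under 0.05. The TIM22 subunit gene timm29 had -0.04, with 6.69, 5.89 and 6.28 in hypoxia 1/4, 2 and 3, on both sides of 6.34, 6.30 and 6.34 in normoxia 1, 2 and 3/4. The gene timmdc1, counted by its name although its product is an assembly factor of complex I, had -0.39 and -0.03 at its 2 probe sets, neither called.

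Other genes of import outside the families were also mostly lower, and a list of other membrane transport genes is given beside them. Of 27 listed import genes 14 were measured, and 13 had a difference under 0, 92.9% against 54.7% of all genes. At an unadjusted p under 0.05 11 import genes were lower, 78.6% against 13.5% of all genes. The median of these 14 import genes was -0.46 and 0 were called in limma. Among them, named here for their role after their values were seen, the motor regulator gene pam16 had -0.47 (limma adjusted p = 0.0768), the import motor gene hspa9, the mitochondrial Hsp70, had -0.34 (limma adjusted p = 0.0995), the presequence peptidase gene pmpca had -0.44 (limma adjusted p = 0.0789) and the matrix chaperonin gene hspd1 had -0.65 (limma adjusted p = 0.0846). In all 4 the groups did not overlap, as in 11 of the 14 import genes, 78.6% against 17.0% of all genes. Groups overlapped for grpel1, samm50 and romo1, with -0.30, -0.31 and 0.07. Of 15 listed channel and transport genes 7 were measured and 0 were called in limma, and the median was -0.16. Of these 7, 5 had a difference under 0, 71.4% against 54.7% of all genes. At an unadjusted p under 0.05 1 was lower, 14.3% and so near the 13.5% of all genes. The outer membrane pore genes vdac1, vdac2 and vdac3 had -0.13, -0.16 and -0.19, with no overlap between groups for any of the 3. Groups did not overlap for 4 lower genes of the 7, 57.1% against 17.0% of all genes. The genes mcu and sfxn2 were above 0, with 0.09 and 0.04 and overlapping groups.

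Processing changed the size of the medians and not their sign. Over the 23 alternatives the carrier median ran from -0.42 to -0.18 and the import median from -0.43 to -0.19, each below the median of all genes in the same setting. The lowest values came from median scaling, which also moved the median of all genes from -0.03 to -0.13.

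**Figure D5:**
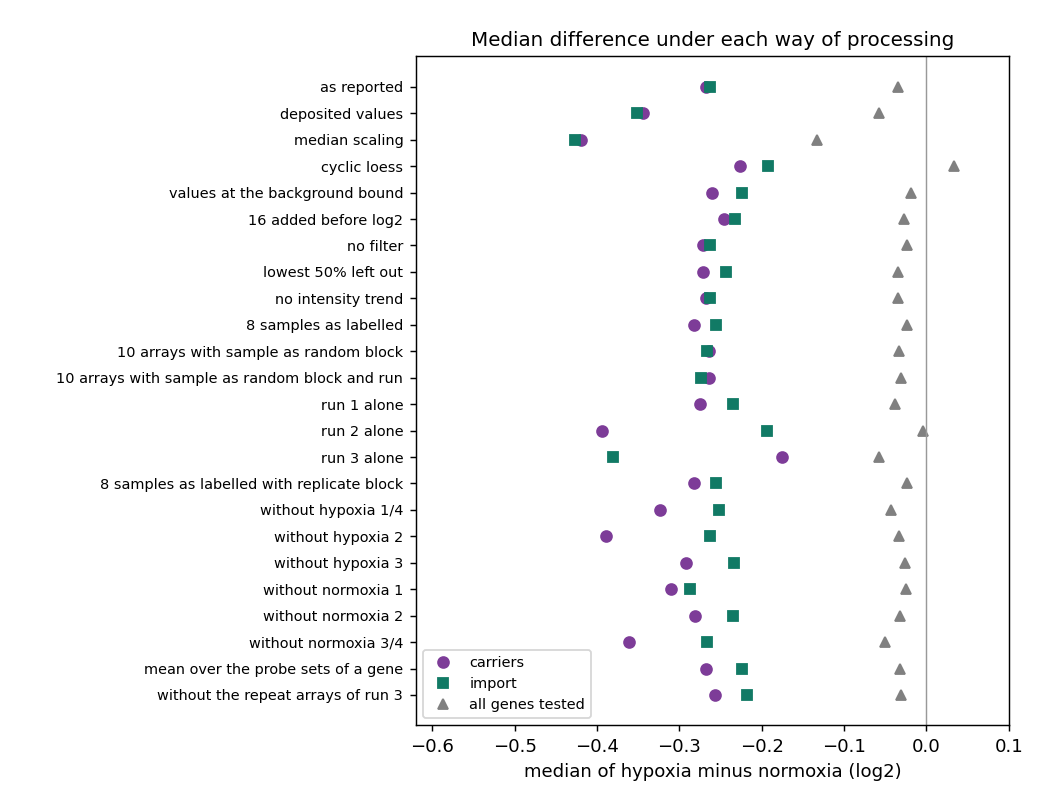
Median difference (horizontal axis, log2, hypoxia minus normoxia) of carrier genes, import genes and all genes tested, under the reported processing and each of 23 alternatives. Carrier and import medians lie between -0.43 and -0.18 and the median of all genes between -0.13 and 0.03.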

How the data were processed

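The deposited table gives a linear intensity for each of 15617 probe sets on 10 arrays. How the authors made these intensities, and the software used, is not given in the sources used here. Values ran from -116 to 9979, with 7.86 to 10.1% at or below 0 on each array, as after background subtraction, and array medians differed. The deposited records of each array hold another kind of content, text on fluidics and scanning, per the file headers, and gave the hybridization run.

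Values were quantile normalized, 1 was added, results under 1 were set to 1, and log2 was taken. The 115 control probe sets and the lowest 30% by mean were left out. Arrays of the same group were counted as 1 sample where their log2 differences over 2247 bright probe sets had an SD no larger than 0.151, the larger of the technical pairs' values. Hypoxia 1 and 4 had 0.112 and normoxia 3 and 4 had 0.0927, and other pairs within a group had 0.268 to 0.635. The record of hypoxia array 5 also carries the number 4, and the array was taken as the repeat of hypoxia 2 that its label states. Groups were fitted in limma 3.58.1 under R 4.3.3 (lmFit, eBayes with an intensity trend, two-sided, Benjamini-Hochberg), after a test on simulated data. An exact permutation test of 3 against 3 samples cannot give a p under 0.1. The background bound of 27.0 is 2 times the background SD of 13.5 estimated from negative values.

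Symbols came from the array's probe-to-gene annotation, in which 10795 probe sets had 1 symbol, 135 several and 4572 none, and all 42 member genes matched their RefSeq gene ID with the same symbol. A gene with several probe sets was read at the one with the highest mean. No nucleotide or protein sequence was used here. The naming rule took every called member, the largest difference of each class, a fixed panel of carrier and import genes, and the 2 carriers set aside. The remaining tested members are named too, so that each has a value. Members, classes, lists and tests were chosen with earlier results of these data known. Figures were drawn with Python 3.11.15 and matplotlib 3.10.9. Replicate numbers were not used as pairs: the deviations of same-numbered samples correlated at 0.18, 0.09, 0.08 and -0.09 for numbers 1 to 4.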

Additional observations from a re-analysis of the deposited data

How the results depend on the processing

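Calls were few and depended on the fit, while the direction of the medians did not turn in any of 23 alternatives. The count of member genes lower in hypoxia was 4 as reported, beside 3.45% of all genes called lower. That share is given in brackets after each count. The count was 1 with the deposited values (0.661%), 1 with cyclic loess (2.43%), 2 with values set to the background bound (2.95%) and 2 with no filter (1.11%). It was 10 with median scaling (7.45%), 0 with no intensity trend (0%) and 0 in run 1 alone (0%). Run 2 alone leaves 1 counted sample in normoxia, so no count is given. The count was 14 with the 8 samples as labelled (8.97%). In a fit to the 10 single arrays that took sample as a random block it was 10 (6.46%), and 11 with the run added (5.93%). With the replicate block on the 8 samples it was 8 (6.78%), but samples share no more than a number, and 5 of 8 correlated best with their own number. Leaving out each counted sample in turn gave 0 to 2 (a fit to fewer samples), beside 0% to 1.13% of all genes called lower. The count was 0 without hypoxia 3, 1 without hypoxia 1/4, normoxia 1 or normoxia 3/4, and 2 without hypoxia 2 or normoxia 2. No member was called higher in any setting.

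The carrier median was -0.34 with the deposited values, -0.42 with median scaling, -0.39 in run 2 and -0.18 in run 3, and -0.39 to -0.28 when a sample was left out. The import median was -0.35, -0.43, -0.19 and -0.38 in those 4 settings, and -0.19 with cyclic loess.

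Under the alternatives 30 gene values changed sign, all of genes not called. For slc25a3a these were 0.0417 with the deposited values, 0.20 in run 3 and -0.36 to 0.25 with a sample left out. For tomm20b they were -0.18 (deposited), -0.26 (median scaling), -0.0007 (random block), -0.13 (run 1), -0.0374 (without the repeat arrays of run 3, an alternative chosen after seeing the data) and -0.0897 to 0.14 with a sample left out. For timm17a they were -0.15 (deposited), -0.23 (median scaling), -0.0184 (run 1) and -0.0131 to 0.11 with a sample left out. For timm29 they were 0.0352 (cyclic loess), 0.0608 (8 samples, with and without the replicate block), 0.0118 (run 1), 0.12 (run 2) and -0.24 to 0.16 with a sample left out. For slc25a43 they were 0.13 (run 1), 0.39 (run 3) and -0.30 to 0.0316 with a sample left out. The gene tomm20a had -0.0451 with median scaling, slc25a17 had 0.0259 at the background bound and -0.66 to 0.004 with a sample left out, slc25a25a had -0.32 to 0.0422 with a sample left out, and in run 3 slc25a44b had -0.28 and slc25a14 had 0.10. The cause of these changes was not tested. Of the genes that changed sign, tomm20b, timm29, timm17a, slc25a43, tomm20a and slc25a25a were under the background bound on 0 arrays. Dim genes near the background bound, slc25a3a, slc25a14, slc25a17 and timm8a among them, have levels that the signal over background limits. The sign of timm8a did not change.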
